A study of Mus musculus with 4 samples.

Results

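The genes described here are 9 components of the tight junction, the belt that seals neighbouring epithelial cells at their apical border: the claudins Cldn1, Cldn3, Cldn4, Cldn7, Cldn8 and Cldn10, occludin (Ocln), the scaffold gene Tjp1 and the adhesion molecule gene F11r. They were chosen by symbol from a fixed list, which like the other gene lists below was drawn up with earlier results of these data known. All 9 were found among the 24411 gene symbols of the count table. RNA was sequenced from whole sublingual glands of female C57BL/6J mice of genotype Nkx2.3-/-, with 2 libraries at 8 weeks of age (replicates 1 and 2) and 2 at 32 weeks (replicates 3 and 4). Both ages carry the Nkx2-3 knockout, and no gland with intact Nkx2-3 was analysed here. The labels do not say whether the libraries came from separate animals or from pools, so the spread between them may be technical. In RNA from a whole gland, fewer cells of a type and less RNA per cell cannot be told apart.

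Tight junctions hold salivary fluid in the lumen and decide which ions and how much water pass between the cells. Claudins are small proteins with 4 membrane spans that line up into strands, and each type makes the strand either a barrier or a pore for particular ions. Occludin travels with the strands, F11r encodes the junctional adhesion molecule JAM-A, and Tjp1 encodes the scaffold protein zonula occludens 1, which ties the strands to actin through PDZ domains that grip the tails of claudins.

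The coding ends of the 6 claudins are shown because that tail is what joins the claudins to Tjp1 in the list. Each run is the last 30 coding bases on the sense strand in the GENCODE vM1 transcript (NCBIM37, the assembly called mm9), 5′ to 3′, and the capitals mark the last pair of codons before the stop, which code for tyrosine and valine, the ending that PDZ domains of this scaffold are known to bind.
Cldn10: aaacagtttgataaaaatgccTATGTCtaa
Cldn3: accgcctacgaccgcaaggacTACGTCtga
Cldn8: agcatatactccaaaagtcagTATGTGtag
Cldn7: aagtccaattcctccaaggaaTACGTGtga
Cldn4: cgctctgtccccgccagcaacTATGTGtaa
Cldn1: acaccttctagtgggaaagacTATGTGtga
All 6 end this way, as do 14 of 26 claudin genes and 48 of 21370 protein-coding genes (0.225%). Only genes with a complete coding sequence in that annotation were counted. The 26 are claudins whose symbol has a number alone, so symbols with a further letter, such as Cldn34a, are not among them.

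Before the results, the libraries themselves were compared. Total counts ran from 12925869 to 16484772, and 3 counts, the most that a count of 0 allows, correspond to 0.174 to 0.221 CPM (counts scaled to a common library size, here with edgeR's TMM factors). Such limits cover counting error only. Nkx2-3 had 31 and 28 counts at 8 weeks and 21 and 29 at 32 weeks. The sources used here do not give the deleted part of that gene. Pearson's r of log2(CPM + 1) over 12810 genes, which are not independent replicates, was 0.965 to 0.976 for the pairs that include 8-week replicate 2 and 0.984 to 0.988 for the other pairs, so this library stood apart from the rest, its partner of the same age included. Epithelial markers fixed for the label were present in every library. Krt18, the highest of them in CPM, had 755 and 633 CPM at 8 weeks, against 789 and 859 CPM at 32 weeks. Krt19, the lowest, had 2.07 and 10.6 CPM at 8 weeks, against 3.11 and 8.43 CPM at 32 weeks. Skeletal muscle markers summed to at most 5.82 CPM and endothelial markers to 40.3 to 54.5 CPM. The counts do not say which epithelial cells of the gland, acinar or ductal, the junction transcripts came from.

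Cldn10 was by far the most abundant of the 9 genes. Levels of different genes were compared as TPM, in which counts are divided by the merged exon length of each gene and scaled to a common total. Cldn10 stood at 242.9 ± 48.8 TPM (SD over the 4 libraries, n = 4), F11r at 60.1 ± 14.7 TPM and Cldn3 at 59.7 ± 15.8 TPM. Cldn8 followed at 30.2 ± 9.80 TPM and Cldn7 at 21.5 ± 4.84 TPM. The scaffold Tjp1 stood at 5.61 ± 1.42 TPM, Ocln at 4.42 ± 1.18 TPM, Cldn4 at 4.24 ± 1.17 TPM and Cldn1 at 2.97 ± 0.737 TPM. The mean of Cldn10 was thus 4.04 times that of F11r, 8.04 times that of Cldn8 and 81.9 times that of Cldn1. In this order 3 steps had no overlap of library ranges, namely those from Cldn10 to F11r, from Cldn3 to Cldn8 and from Cldn7 to Tjp1. Within the tiers that these steps separate, neighbours overlapped: F11r lay above Cldn3 in 2 of 4 libraries, and Cldn8 above Cldn7 in 2 of 4. The lowest tier of Tjp1, Ocln, Cldn4 and Cldn1 had no step without overlap. A part of the spread in TPM belonged to the scale, since 1 TMM-scaled CPM per kilobase equalled 0.966 TPM in 32-week replicate 3 and 1.76 TPM in 8-week replicate 1. For that reason libraries are compared below in CPM.

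**Figure D1:**
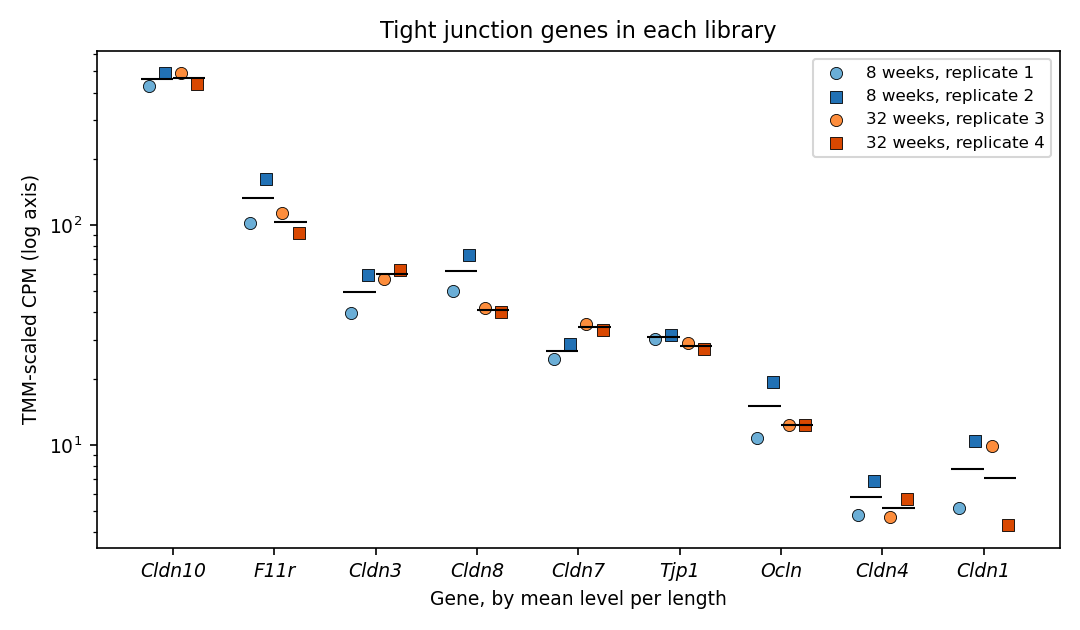
TMM-scaled CPM (log axis) of the 9 tight junction genes in each of the 4 libraries, with blue for 8 weeks, orange for 32 weeks and a black line at the mean of each age. Genes are ordered by mean TPM, so CPM need not fall from left to right. Cldn10 lies between 430.5 and 489.8 CPM in all 4 libraries, and 8-week replicate 2 (dark blue squares) is the highest point for 6 genes.

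Cldn10 dominated the claudin transcripts in each library and at both ages. Of the level per length summed over 31 claudin genes, Cldn10 took 67.5% and 62.8% in the 8-week libraries and 65.8% and 63.4% in the 32-week libraries. Its mean share was 64.9% ± 2.18 (SD, n = 4), and the ages overlapped. As a plain share of claudin counts it was 74.5% (95% exact Clopper-Pearson interval 73.6 to 75.5) in 8-week replicate 1, 70.0% (69.1 to 70.9) in 8-week replicate 2, 73.5% (72.6 to 74.3) in 32-week replicate 3 and 72.4% (71.5 to 73.3) in 32-week replicate 4. These intervals cover counting error only. Cldn3 came next with 15.9% ± 2.37 of the summed level, then Cldn8 with 8.00% ± 1.98 and Cldn7 with 5.78% ± 0.789. Cldn4 and Cldn1 took 1.12% ± 0.152 and 0.829% ± 0.294. The non-members Cldn23 (1.57% ± 0.415) and Cldn12 (1.21% ± 0.304) both overlapped Cldn4 in their library values. All claudins outside the list together took 3.13% to 3.75% in each library.

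**Figure D2:**
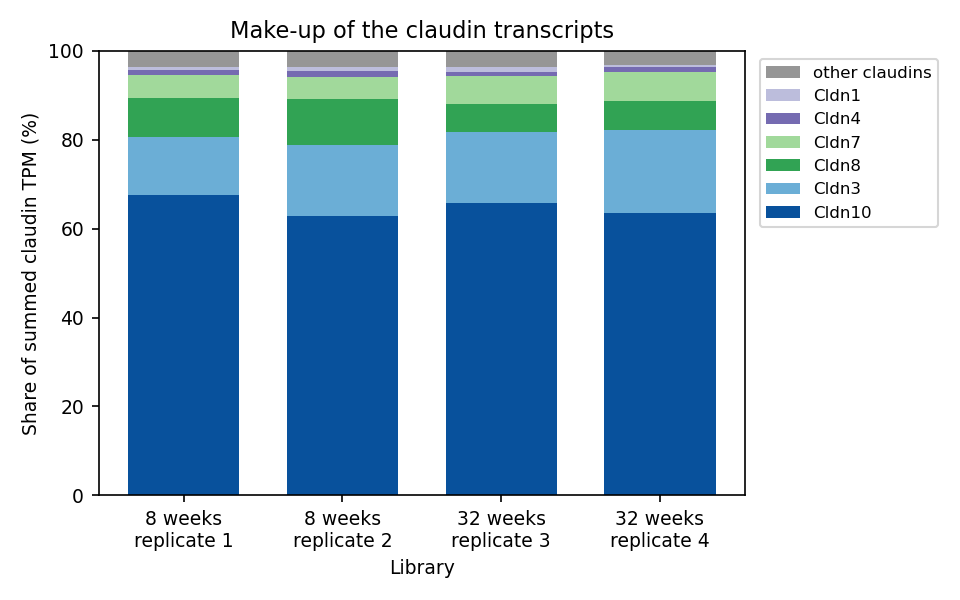
Stacked bars of each claudin's share (%) of the summed claudin TPM in each library, with all claudins outside the list in grey. Cldn10 fills 62.8% to 67.5% of every bar, and Cldn8 is largest in 8-week replicate 2 (10.4%).

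Cldn10 (ENSMUSG00000022132.8, chromosome 14, 119187093 to 119274711, plus strand) encodes a claudin that forms ion pores. It had 430.5 and 489.8 CPM at 8 weeks, against 489.8 and 439 CPM at 32 weeks. One library of each age was at the upper value and the other near the lower. The ratio of its highest to its lowest library was 1.14, and 8.27% of the 6685 tested genes of at least 10 CPM had a smaller ratio, against a median ratio of 1.36 over those genes. The log2 fold change, 32 weeks over 8 weeks, was 0.01 (SE 0.24, 95% interval -0.55 to 0.57), and it was -0.079 when only total counts were used for scaling. The gene has alternative first exons whose products are known to differ in pore selectivity, one favouring anions and the other cations. In the annotation the first exons start 66861 bases apart, at 119187093 (Cldn10-201) and 119253954 (Cldn10-001). The first 60 coding bases of each form, 5′ to 3′ on the plus strand with the start codon in capitals, are shown because these beginnings are where the forms differ.
Cldn10-201: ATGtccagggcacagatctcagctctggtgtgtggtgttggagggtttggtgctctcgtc
Cldn10-001: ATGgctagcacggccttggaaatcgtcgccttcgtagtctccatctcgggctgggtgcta
The last 477 coding bases are identical in both forms, and 213 and 219 bases before them belong to one form only. The deposited table gives a single count for the gene, so the share of each form was not analysed here.

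Cldn3 and Cldn7 had higher mean CPM at 32 weeks, but neither passed the test. Cldn3 (ENSMUSG00000070473.2, chromosome 5, 135462084 to 135463342, plus strand), a barrier-forming claudin of many glandular epithelia, had 39.8 and 59.4 CPM at 8 weeks, against 56.9 and 62.4 CPM at 32 weeks. The low value was that of 8-week replicate 1 alone, and the ages overlapped. Its log2 fold change was 0.27 (SE 0.24, 95% interval -0.29 to 0.83), and with 1 library left out it ran from 0.0088 (without 8-week replicate 1) to 0.59 (without 8-week replicate 2). Part of an exon of Cldn3 lies opposite the noncoding gene Wbscr25, and since the strand setting of the counting is not given, reads there cannot be assigned to one of them. Cldn7 (ENSMUSG00000018569.6, chromosome 11, 69778281 to 69781387, plus strand), which also sits along the lateral membrane and binds the adhesion protein Epcam, had 24.6 and 28.9 CPM at 8 weeks, against 35.5 and 33.3 CPM at 32 weeks. Both 32-week libraries lay above both 8-week libraries. The log2 fold change of Cldn7 was 0.36 (SE 0.19, 95% interval -0.08 to 0.81). Per length, Cldn3 stood at 0.193 to 0.297 of Cldn10 within a library and Cldn7 at 0.0772 to 0.102.

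Cldn8 was lower in both 32-week libraries. Cldn8 (ENSMUSG00000050520.4, chromosome 16, 88561073 to 88563428, minus strand) encodes a claudin that limits cation leak and is known from distal kidney tubules and from ducts. It had 50.2 and 73.0 CPM at 8 weeks, against 42.0 and 40.2 CPM at 32 weeks. The ages did not overlap, and 8-week replicate 2 was the highest library. The log2 fold change was -0.58 (SE 0.23, 95% interval -1.13 to -0.04), with an unadjusted edgeR p of 0.0386 and an adjusted p of 0.999 over all genes. Cldn8 passed without 8-week replicate 1 (log2 fold change -0.83, edgeR adjusted p = 0.0447), a fit in which 2.15% of 13267 genes were called. That fit has 8-week replicate 2 as its only 8-week library, takes the spread from the 32-week pair and assumes that the lone library varies likewise. Without 8-week replicate 2 its log2 fold change was -0.28. The ratio of Cldn8 to Cldn10 per length was 0.13 and 0.166 at 8 weeks and 0.0957 and 0.102 at 32 weeks.

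Cldn4 and Cldn1 were scarce. Cldn4 (ENSMUSG00000047501.2, chromosome 5, 135420996 to 135422804, minus strand), a claudin that lowers sodium leak in many epithelia, lies 39279 bases from Cldn3 on the opposite strand. It had 65 and 99 counts at 8 weeks and 68 and 97 counts at 32 weeks, or 4.80, 6.84, 4.70 and 5.64 CPM in the order of the replicates. Cldn1 (ENSMUSG00000022512.2, chromosome 16, 26356728 to 26371927, minus strand), the claudin best known for the water barrier of the skin, had 5.17 and 10.4 CPM at 8 weeks, against 9.88 and 4.30 CPM at 32 weeks. One library of each age was near 10 CPM and the other near 5 or below, so the difference within an age exceeded that between ages. With a highest-to-lowest ratio of 2.42, Cldn1 varied more between libraries than any other of the 9 genes. Log2 fold changes were -0.17 (SE 0.29) for Cldn4 and -0.15 (SE 0.46) for Cldn1. That of Cldn4 was 0.12 without 8-week replicate 2. That of Cldn1 became 0.45 when 8-week replicate 2 was left out and 0.34 when 32-week replicate 4 was left out.

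The non-claudin members fell into a steady scaffold gene and a pair of more variable membrane genes. Tjp1 (ENSMUSG00000030516.8, chromosome 7, 72441051 to 72516125, minus strand) had 30.2 and 31.6 CPM at 8 weeks, against 29.2 and 27.4 CPM at 32 weeks. The ages did not overlap, yet the highest library was only 1.15 times the lowest, a ratio that 10.4% of genes of at least 10 CPM undercut. Its log2 fold change was -0.13 (SE 0.18, 95% interval -0.55 to 0.30). Ocln (ENSMUSG00000021638.6, chromosome 13, 101266462 to 101322673, minus strand), a strand protein with 4 membrane spans but of another family than claudins, had 10.7 and 19.3 CPM at 8 weeks, against 12.3 CPM in both 32-week libraries. The 8-week libraries lay on either side of the 32-week ones. F11r (ENSMUSG00000038235.4, chromosome 1, 173367666 to 173394734, plus strand) had 103 and 162 CPM at 8 weeks, against 114 and 91.8 CPM at 32 weeks. Here 8-week replicate 2 was again highest, and the ages overlapped. Log2 fold changes were -0.29 (SE 0.29) for Ocln and -0.37 (SE 0.27) for F11r, and without 8-week replicate 2 they were 0.21 and 0.0074. Platelets, leukocytes and endothelium are also known to make F11r. Endothelial markers summed to 40.3 and 44.8 CPM at 8 weeks, against 54.5 and 47.1 CPM at 32 weeks. Immune markers, mostly Jchain, summed to 963, 102, 545 and 842 CPM in the order of the replicates. No list of platelet markers was used. The part of these cells in the F11r values was not tested. Per merged exon length, the summed claudins were 59.2 to 71.5 times Tjp1 and 65.0 to 97.3 times Ocln within a library. These ratios depend on the length used. Tjp1 has a merged exon length of 7360 bases and a coding length of 5238, against 2628 and 696 for Cldn10.

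The series compared glands of mice 8 and 32 weeks old, and none of the 9 genes passed that comparison. With edgeR's quasi-likelihood test, 0 of 9 genes had an adjusted p under 0.05, all 9 standing at an adjusted p of 0.999, and 0% of the 12810 genes tested were called. DESeq2 and limma-voom also called 0 of the 9. Only Cldn8 had an unadjusted p under 0.05, 1 of 9 against 1.36% of all genes tested. Of the 9 log2 fold changes 3 were positive and 6 negative, with a median of -0.15 beside -0.01 over all genes. In 3 of the 9 genes the ages did not overlap, against 28.6% of all genes: Cldn7 was higher at 32 weeks (14.4% of all genes) and Cldn8 and Tjp1 were lower (14.2%). These shares are near the background. All 9 had enough counts for the test, and the 95% intervals of 8 of them included 0. With 2 libraries against 2, an exact permutation test of a single gene cannot give a p below 0.333.

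**Figure D3:**
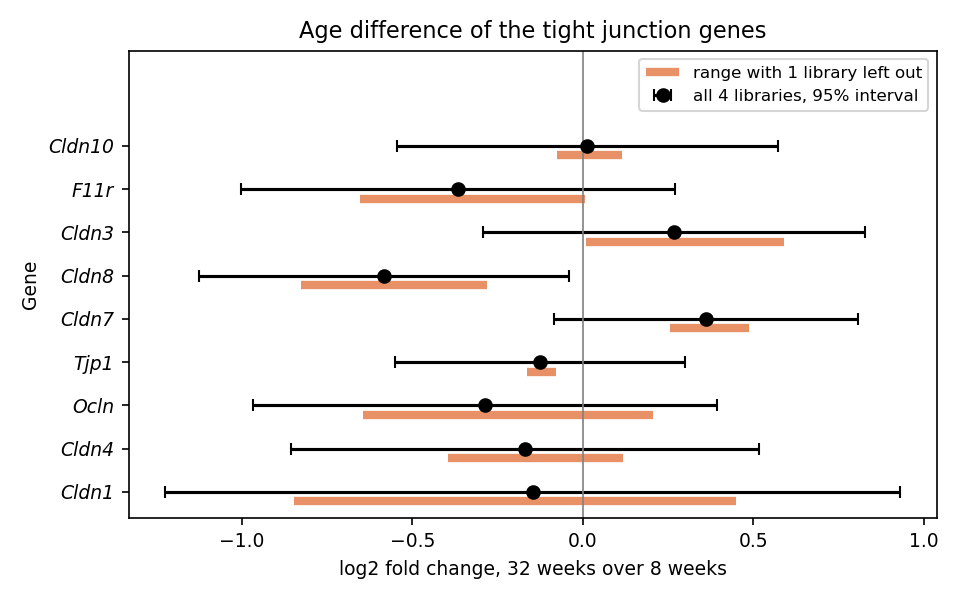
Log2 fold change of each gene, 32 weeks over 8 weeks (points, bars are 95% intervals from edgeR), with an orange bar for the range of values when each of the 4 libraries is left out in turn. Cldn8 and Cldn7 stay on one side of 0 in every such fit, as do Cldn3 and Tjp1, while Cldn10, F11r, Ocln, Cldn4 and Cldn1 cross it.

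Among the 9 genes, 8-week replicate 2 stood out from the other libraries. It held the highest value for 6 of the 9 genes (F11r, Cldn8, Tjp1, Ocln, Cldn4 and Cldn1) and the lowest for 0, and Cldn10 stood at 489.8 CPM both there and in 32-week replicate 3. Beside this, 34.7% of all genes tested were highest there and 35.3% lowest. Centred on each gene's mean log2 level, the median of the 9 genes was 0.33 in that library and -0.18, -0.01 and -0.11 in 8-week replicate 1, 32-week replicate 3 and 32-week replicate 4. Most duct markers were high there too. Of 9 tested, 6 were highest in 8-week replicate 2 (Fxyd2, Krt7, Krt19, Scnn1b, Cftr and Klk1) and 1 was lowest, and their centred median was 0.67 there and -0.40 to -0.05 elsewhere. Klk1, a duct kallikrein, had 4327 CPM in that library against 1309 to 2175 CPM in the others, and Fxyd2, a sodium pump subunit, 365 CPM against 102 to 116 CPM. Kcnn4, a potassium channel gene, went the other way, at 129 CPM against 167 to 235 CPM, and Ascl3 and Scnn1a peaked in 32-week replicate 3. The summed level of all 10 duct markers, of which Klk1 makes most, was 2365 and 4942 CPM at 8 weeks, against 2610 and 1668 CPM at 32 weeks, and none of them was at 0 in all libraries. The 6 acinar markers were divided: in 8-week replicate 2, Slc12a2 and Ano1 were highest and Aqp5 and Bhlha15 lowest, while Smgc was lowest in 32-week replicate 3 and Muc19 in 8-week replicate 1. Their summed level, most of it Smgc, was 155100 and 87860 CPM at 8 weeks, against 63350 and 143500 CPM at 32 weeks. The general epithelial markers were divided as well, with Krt7, Krt19 and Cdh1 highest in 8-week replicate 2 and Epcam, Krt8 and Krt18 lowest. Krt7 and Krt19 also belong to the duct markers counted above, and of the other epithelial markers only Cdh1 was highest there. Whether the make-up of the glands played a part in the junction gene values was not tested.

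**Figure D4:**
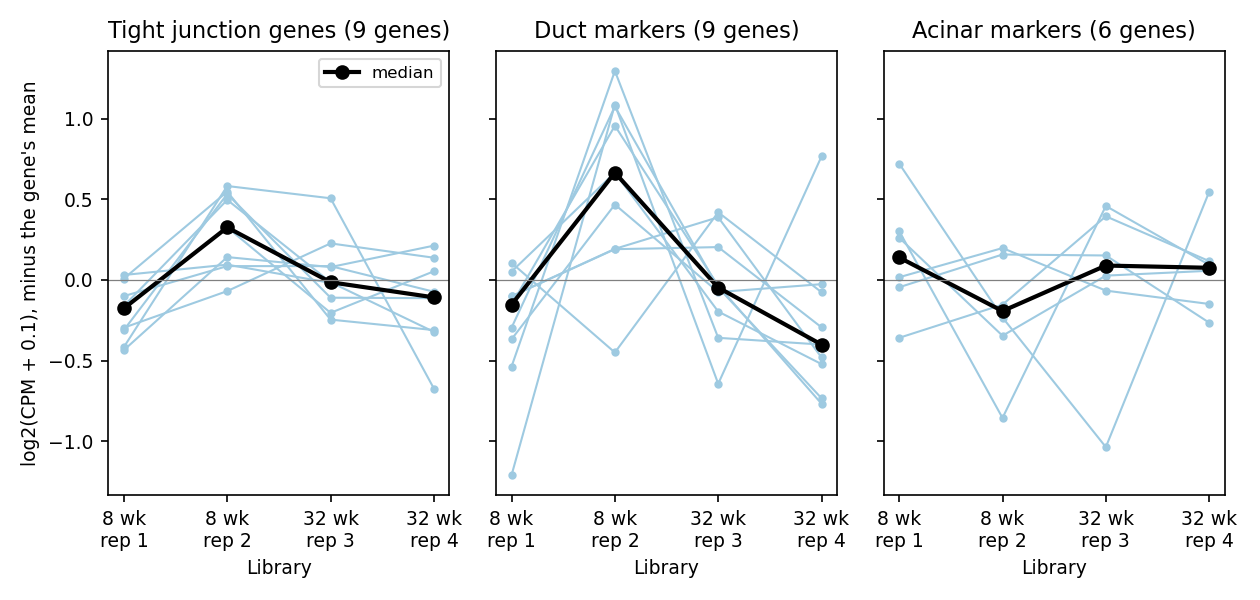
log2(CPM + 0.1) of each gene minus its mean over the 4 libraries, for the 9 tight junction genes, 9 duct markers and 6 acinar markers (thin lines are genes, the black line is the median). Lines join the values of one gene and imply no order of libraries. Medians in 8-week replicate 2 are 0.33, 0.67 and -0.19, and single acinar markers lie on both sides of 0 there.

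The other claudins were mostly silent. Of the 31 claudin genes in the table, 12 had 0 counts in every library, which allows each at most 0.221 CPM in a library. These 12 were Cldn13, Cldn16, Cldn18, Cldn19 and Cldn24, and otherwise genes of the Cldn34 group, such as Cldn34a. A further 6 had 1 to 9 counts over all libraries. Besides the 6 members, 5 passed the low-count filter. Cldn23 had 9.59 and 6.28 CPM at 8 weeks, against 7.67 and 7.39 CPM at 32 weeks. Cldn12 had 9.74 and 19.0 CPM at 8 weeks, against 15.5 and 9.95 CPM at 32 weeks, high in the same libraries as Cldn1. Cldn2, a cation and water pore of leaky epithelia, had 0.886 and 2.76 CPM at 8 weeks, against 2.21 and 1.63 CPM at 32 weeks. Cldn5, the claudin of endothelium and named here outside the rule for its cell type, had 6 to 12 counts in a library. Cldn34c1, the remaining claudin that passed the filter, had 48 counts over all libraries.

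The wider junction genes did not pass the age test either. Over 12810 genes edgeR called 0 of 4 tested non-member claudins in the fixed list (2 positive, 2 negative), 0 of 9 other membrane proteins of the tight junction (5 positive, 4 negative, median log2 fold change 0.10), and 0 of 21 scaffold and polarity genes (9 positive, 12 negative, median -0.04). It also called 0 of 13 genes of adherens junctions and desmosomes (6 positive, 7 negative). Among membrane proteins the highest per length were Marveld3, a relative of occludin, at 17.8 TPM, Lsr, an organiser of tricellular corners, at 12.3 TPM, and between them Igsf5, all above Ocln. Among scaffold and polarity genes Ybx3, a factor that binds Tjp1, stood at 48.1 TPM, Cgnl1 (paracingulin) at 26.9 TPM and the polarity kinase gene Prkci at 9.34 TPM. Ybx3 had 88.6 and 27.3 CPM at 8 weeks, against 66.6 and 63.6 CPM at 32 weeks, so it was lowest in the library where most members were highest. Cgnl1 was steady, with 139 to 159 CPM. Among adherens junction and desmosome genes Perp stood at 74.5 TPM, Cdh1 (E-cadherin) at 59.2 TPM and Ctnna1 at 38.4 TPM. Cdh1 had 192 and 214 CPM at 8 weeks, against 187 and 184 CPM at 32 weeks. Tjp3, a paralog of Tjp1 named after its values were seen, had 7.90 and 2.28 CPM at 8 weeks, against 4.70 and 11.5 CPM at 32 weeks.

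The genes closest to Cldn10 in their pattern over the 4 libraries were Cript, Ano6, Jup, Lrrc8d and Ostc. Likeness was the root mean square difference of centred log2 CPM, searched over 6684 genes of at least 10 CPM, and it was 0.014 to 0.0177 for these 5. Jup, the junction protein plakoglobin, had 139 and 154 CPM at 8 weeks, against 155 and 140.5 CPM at 32 weeks. With 4 libraries such closeness is a description only.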

How the data were processed

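The authors deposited raw read counts per gene symbol in the 4 libraries, with no normalization. Reads were aligned to mm9 with STAR, per the submitters' processing notes. The counting tool, annotation and strand setting were not given in the sources used here. Total counts per library were 12925869 to 16484772. The main test was edgeR 4.0.16 (R 4.3.3) quasi-likelihood on those counts. It used TMM scaling, edgeR's default filter on low counts, age as its single term, and p-values adjusted by Benjamini-Hochberg across 12810 genes, with a threshold of 0.05. TPM used merged exon lengths of GENCODE vM1 (NCBIM37). Of the symbols, 20836 matched by name, 1405 by synonym and 2170 had no match and stayed out of TPM. Alternatives were RLE factors, total counts, the 10 most abundant genes left out, other filters, DESeq2 1.42.0, limma-voom 3.58.1, other lengths and each library left out. CPM per kilobase was added after seeing the data. The code of the fit and of the length scaling was run on simulated counts drawn from the model that each assumes. Such runs check the code and not whether these data meet the models. The members and gene lists were chosen with earlier results of these data known. Besides the members, the rule named the 3 genes of highest mean TPM in each list, any past the threshold (there were 0), and the 5 genes most like the leading claudin. Endothelial, immune, fibroblast, muscle, nerve, adipocyte and myoepithelial marker lists are described by their sums.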

Additional observations from a re-analysis of the deposited data

How the results depend on the processing

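No paired analysis was possible because the ages share no replicate number. The count of genes called over the whole table, 0 in the fit of all libraries, was 10 with total counts only, 7 with no low-count filter, 3 with DESeq2 and 6 to 285 with 1 library left out; the cause was not tested. The count of the 9 junction genes called was 0 to 1 with 1 library left out, the 1 being Cldn8 without 8-week replicate 1, where 8-week replicate 2 alone stands for its age and the 32-week pair gives the spread. Cldn10's share of the summed claudin level was 64.9% and became 67.8% with the longest coding transcript, 71.9% with the coding length and 72.6% with no length correction, because these change its length against the other claudins. With the coding length 5 of the 9 genes kept their place in the order, and with 1 library left out 5 to 9 did, with Cldn10 first in each. The coding length reversed the lowest tier, which then ran Cldn1, Cldn4, Ocln and Tjp1, so the order within that tier depends on the length used. Of 63 log2 fold changes under other settings 62 kept their sign and side of the threshold, the exception being Cldn10 with total counts only (-0.079). With 1 library left out, values ran from -0.075 to 0.12 for Cldn10, from -0.85 to 0.45 for Cldn1, from 0.0088 to 0.59 for Cldn3, from -0.40 to 0.12 for Cldn4, from -0.65 to 0.21 for Ocln and from -0.66 to 0.0074 for F11r. The number of libraries, 2 at each age, limits every comparison.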

Other observations

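Regulators of epithelial junctions, a list of 17 genes of which 15 were tested, also had 0 calls by age with edgeR (8 positive, 7 negative log2 fold changes, median 0.01). Ehf, an epithelial ETS factor, stood at 116 TPM, with 448 and 545 CPM at 8 weeks, against 447 and 423 CPM at 32 weeks, and was highest in 8-week replicate 2. The membrane protease gene Prss8 stood at 106 TPM, with 148 and 162 CPM and then 141 and 117 CPM. Spint2, which encodes an inhibitor of such membrane proteases, was the most abundant of the list at 442 TPM, with 482 and 356 CPM at 8 weeks, against 586 and 501 CPM at 32 weeks, and was lowest in 8-week replicate 2. Epcam, the partner of the Cldn7 protein, had 259 and 172 CPM at 8 weeks, against 299.8 and 253 CPM at 32 weeks. Cldn7 was not lowest in the library where Epcam was.

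Other marker lists were measured as sums of CPM. Myoepithelial and basal markers gave 415 and 485 CPM at 8 weeks, against 489 and 572 CPM at 32 weeks. Fibroblast markers gave 360.3 and 308 CPM and then 408 and 322 CPM. Nerve and Schwann cell markers gave 20.3 and 19.8 CPM and then 28.8 and 21.6 CPM, and adipocyte markers 52.8 and 24.0 CPM and then 29.9 and 37.3 CPM. Fabp4 made most of the adipocyte sum, with 35.9 and 20.9 CPM and then 29.7 and 30.8 CPM. Other adipocyte markers varied more, Cfd having 12.7 and 2.21 CPM at 8 weeks, against 0.0691 and 5.41 CPM at 32 weeks. Adipoq had 2.95 and 0.621 CPM and then 0.0691 and 0.233 CPM. These were 40, 9, 1 and 4 counts, and Adipoq did not pass the low-count filter. For Cfd too, 0.0691 CPM was 1 count.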
